A study of Rattus norvegicus with 8 samples.

Results

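Glomerular mRNA of 10 genes of the transforming growth factor beta (TGF-beta) pathway was compared between Dahl rats and SHR rats. The genes were chosen by name. They are the ligands Tgfb1, Tgfb2 and Tgfb3, the ligand storage protein Ltbp1, the ligand activator Thbs1, the receptors Tgfbr1, Tgfbr2 and Tgfbr3, the inhibitory Smad gene Smad7, and Ccn2, a classic target gene that encodes connective tissue growth factor. The array annotation used names 8 of them on a probe set of their own, and Tgfbr2 and Thbs1 were not analysed here. The 8 genes have 13 probe sets among the 31042 tested, which cover 14217 named genes. Where a gene has several probe sets, the one with the highest mean over all arrays is its main probe set.

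The Dahl rats are the Dahl salt-sensitive (Dahl SS) strain, which becomes proteinuric without an experimental trigger, and the SHR rats are a spontaneously hypertensive strain without proteinuria. All rats were males on a low-salt diet, and glomeruli were pulled out of the left kidney with magnets. There were 4 groups, Dahl at 6 weeks, Dahl at 4 weeks, SHR at 6 weeks and SHR at 4 weeks, each with 2 rats and 1 Affymetrix rat genome array per rat. The study reports significant proteinuria in Dahl rats from the older age on. SHR is a different inbred strain and not a Dahl rat free of disease. Strain background and proteinuria therefore cannot be told apart at 6 weeks or over both ages. Differences between the rats of 4 weeks came before the reported onset. At that age strain background and a coming disease cannot be told apart.

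TGF-beta is secreted as a latent dimer, bound to its own propeptide and, through latent TGF-beta binding proteins, to fibrillin fibers of the matrix. Once freed, it binds the type II receptor kinase, which activates the type I receptor, and the type I receptor phosphorylates Smad2 and Smad3. These enter the nucleus with Smad4 and induce matrix genes as well as Smad7, which shuts the receptor down. In the glomerulus the pathway is best known for driving matrix production by mesangial cells and for its part in scarring.

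All values are log2 expression values per probe set as the authors deposited them, so a difference of 1 is a doubling of signal. Array medians ran from 4.11 to 4.16, and across probe sets the rats of a group had correlations of 0.989 to 0.997. Strain differences are Dahl minus SHR, estimated with limma from 1 model of the 4 group means, averaged over both ages unless an age is given. P values were Benjamini-Hochberg adjusted, with all 31042 probe sets in the adjustment, and a gene was called at an adjusted p under 0.05. Markers of podocytes, endothelium and mesangium were present, although some listed ones were dim, such as the mesangial list's Notch3 (mean 2.19). The podocyte gene Nphs1 lay at 11.8 to 12.7, the endothelial gene Kdr at 11.6 to 12.5 and the mesangial gene Itga8 at 8.67 to 9.69. Tubular markers were present too, with the proximal tubule gene Slc34a1 at 12.1 to 13.8. The score of 15 proximal tubule markers, the median over its genes of how far an array lay from the gene's average, ran from -2.02 to 0.0628 in Dahl rats and from 0.256 to 0.956 in SHR rats. The lowest score, -2.02, belonged to Dahl 6 weeks replicate 2. In whole glomeruli, fewer cells of a type and less RNA per cell cannot be told apart.

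Over both ages, Dahl rats had more mRNA of the 3 ligand genes and of Ltbp1 than SHR rats had, and Tgfbr1 was slightly lower. Smad7, Tgfbr3 and Ccn2 did not pass the test. Thus 5 of 8 measured genes were called, 4 higher and 1 lower, where 34.7% of all probe sets were called (10.6% higher and 24.2% lower). In a fit of only the probe sets at or above the median level, which leaves out Tgfbr3, 5 of the genes were higher and 0 lower. There 19% of the probe sets were higher and 11.8% lower. The median difference of the 8 genes was 0.54, against -0.053 for all probe sets. In the plot of values per rat, 3 of the 8 genes, Tgfb1, Tgfb2 and Ltbp1, had every Dahl rat above every SHR rat, as had 8.15% of all probe sets, and 42.1% of all probe sets had every Dahl rat below every SHR rat.

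**Figure D1:**
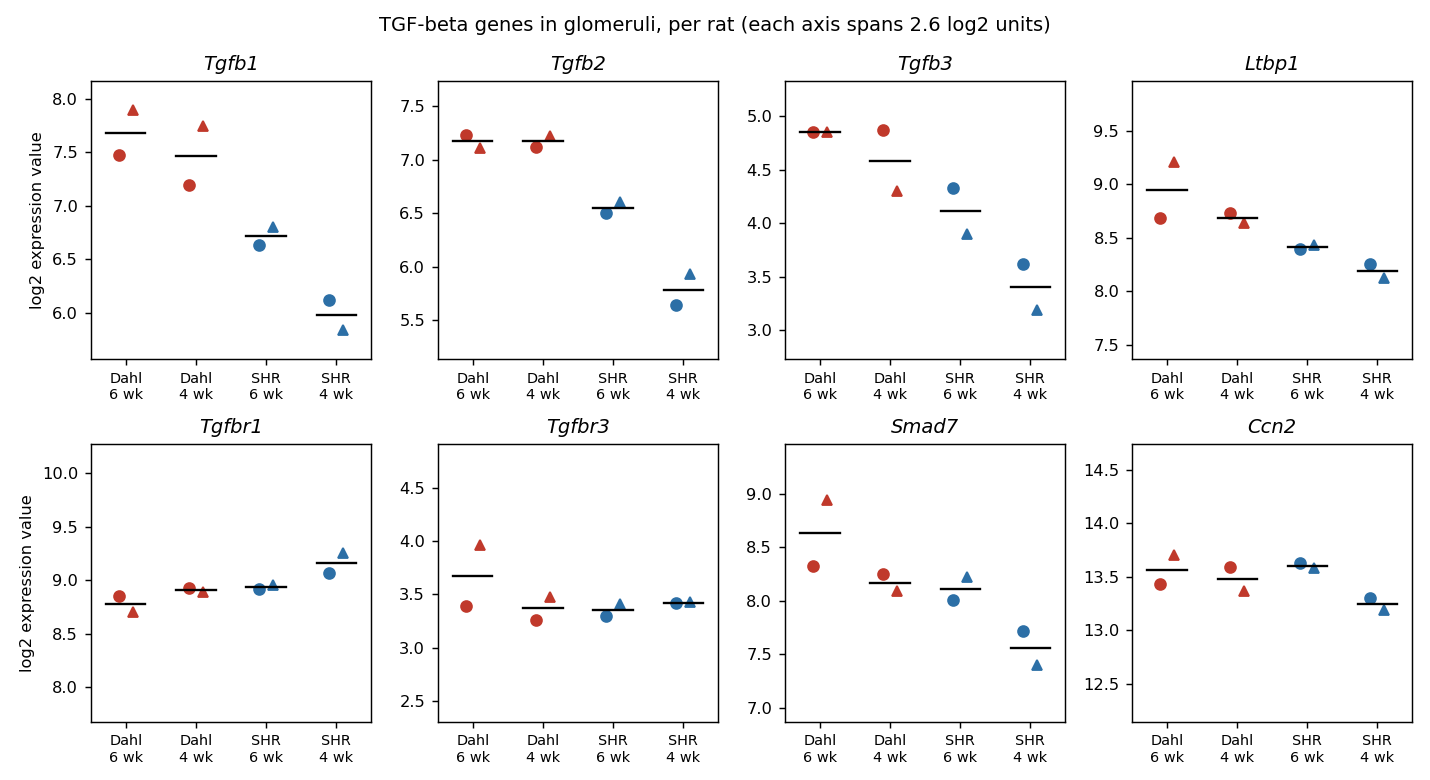
Log2 expression value (vertical axis, each spanning 2.6 log2 units) of the 8 measured genes, with 1 symbol per rat: a circle for replicate 1 and a triangle for replicate 2 of each group, and a bar at the group mean. The SHR rats of 4 weeks were the lowest for Tgfb1, Tgfb2, Tgfb3, Ltbp1, Smad7 and Ccn2, although the Ccn2 values of all rats lay between 13.19 and 13.70.

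RefSeq gives a promoter for all 10 genes in the rat assembly GRCr8. The 250 bases before the start of transcription are shown for the 4 genes that were called higher in Dahl rats. They are also shown for Ccn2, a target gene that did not pass. Capitals mark matches on either strand to 5 motifs: the GC box GGGCGG (read as CCGCCC on the other strand), the TEAD motif GGAATG, the cAMP response element TGACGTCA, the TATA box TATAAA and the Smad palindrome GTCTAGAC.
Tgfb1, chr1:90324062-90324311, plus strand: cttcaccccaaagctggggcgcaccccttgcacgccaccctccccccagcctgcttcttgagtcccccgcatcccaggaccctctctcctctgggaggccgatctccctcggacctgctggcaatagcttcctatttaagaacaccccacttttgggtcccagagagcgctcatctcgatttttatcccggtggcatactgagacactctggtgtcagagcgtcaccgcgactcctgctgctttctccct
Tgfb2, chr13:100792686-100792935, minus strand: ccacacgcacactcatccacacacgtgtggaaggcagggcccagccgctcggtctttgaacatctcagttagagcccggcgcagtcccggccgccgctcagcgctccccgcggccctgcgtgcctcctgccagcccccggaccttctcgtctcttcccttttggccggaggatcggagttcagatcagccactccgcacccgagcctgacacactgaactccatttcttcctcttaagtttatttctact
Tgfb3, chr6:111456947-111457196, minus strand: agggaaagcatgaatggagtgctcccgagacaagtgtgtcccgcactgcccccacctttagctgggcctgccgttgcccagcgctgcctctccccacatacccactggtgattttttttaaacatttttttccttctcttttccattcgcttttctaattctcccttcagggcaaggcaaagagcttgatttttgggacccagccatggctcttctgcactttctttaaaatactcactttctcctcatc
Ltbp1, chr6:26177302-26177551, minus strand: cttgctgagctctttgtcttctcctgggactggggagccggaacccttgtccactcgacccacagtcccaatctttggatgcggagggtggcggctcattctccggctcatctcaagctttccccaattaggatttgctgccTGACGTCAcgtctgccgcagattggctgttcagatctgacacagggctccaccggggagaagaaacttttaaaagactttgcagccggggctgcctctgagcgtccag
Ccn2, chr1:22624615-22624864, minus strand: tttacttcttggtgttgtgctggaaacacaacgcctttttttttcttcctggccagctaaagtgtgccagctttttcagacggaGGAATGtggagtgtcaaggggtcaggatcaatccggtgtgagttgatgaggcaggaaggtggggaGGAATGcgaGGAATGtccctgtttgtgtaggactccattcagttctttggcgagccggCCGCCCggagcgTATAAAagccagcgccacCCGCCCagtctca
The 3 ligand promoters held none of the 5 motifs in this window. Ltbp1 held 1 cAMP response element, which begins 108 bases before the start and is present in 1.59% of all 33469 promoters. Ccn2 held 3 TEAD motifs, which begin 166, 101 and 92 bases before the start, a TATA box at 31 bases and 2 GC boxes, read on the other strand, at 43 and 13 bases. Of all promoters, 12.1% held a TEAD motif, 12.9% a TATA box and 30.5% a GC box, and no match overlapped another in the 5 windows. The Smad palindrome was in none of the 10 windows and in 0.173% of all promoters.

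Tgfb1, the ligand most studied in renal fibrosis, was measured by 1 probe set (1370082_at). Its log2 values were 7.47 and 7.89 in Dahl rats of 6 weeks and 7.19 and 7.74 in Dahl rats of 4 weeks. They were 6.63 and 6.80 in SHR rats of 6 weeks and 6.12 and 5.84 in SHR rats of 4 weeks. The strains did not overlap, the lowest Dahl rat being 7.19 and the highest SHR rat 6.80. Tgfb1 averaged 7.57 ± 0.31 in Dahl rats and 6.35 ± 0.45 in SHR rats (SD, n = 4 each), which is 1.23 higher, or 2.34-fold (standard error 0.17, adjusted p = 0.0144 from limma). Without SHR 6 weeks replicate 1 or 2 the difference was 1.18 or 1.27 and just missed the threshold (adjusted p = 0.0537 and 0.0517).

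Tgfb2, the isoform with a known role in kidney development, had the smallest spread of the 3 ligands within Dahl rats. Its main probe set (1387172_a_at) read 7.23 and 7.11 in Dahl rats of 6 weeks and 7.12 and 7.22 in Dahl rats of 4 weeks. The SHR values were 6.50 and 6.60 at 6 weeks and 5.64 and 5.93 at 4 weeks. Thus the 4 Dahl rats lay within 0.12 of each other whatever their age, and the SHR rats fell into an older, higher pair and a younger, lower pair. The means were 7.17 ± 0.07 in Dahl rats and 6.17 ± 0.46 in SHR rats (SD, n = 4 each), 1.00 apart, or 2.00-fold (standard error 0.08, adjusted p = 0.00613 from limma). This call was kept in 17 of 18 alternative analyses, and leaving out any 1 array did not end it.

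The other probe set of Tgfb2 ended the call. It is dimmer, with a mean of 5.72 against 6.67, and read 5.93 and 5.82 in Dahl rats of 6 weeks, 6.19 and 5.96 in Dahl rats of 4 weeks, 5.85 and 5.79 in SHR rats of 6 weeks and 5.68 and 4.55 in SHR rats of 4 weeks. Here the strains overlapped, the 6-week rats of both strains were nearly level, and SHR 4 weeks replicate 2 stood below the other rats. The difference was 0.51 (standard error 0.26, adjusted p = 0.17, 95% confidence interval -0.17 to 1.18). Both probe sets put the SHR rats of 4 weeks lowest on average, as the plot of the Tgfb2 probe sets shows.

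**Figure D2:**
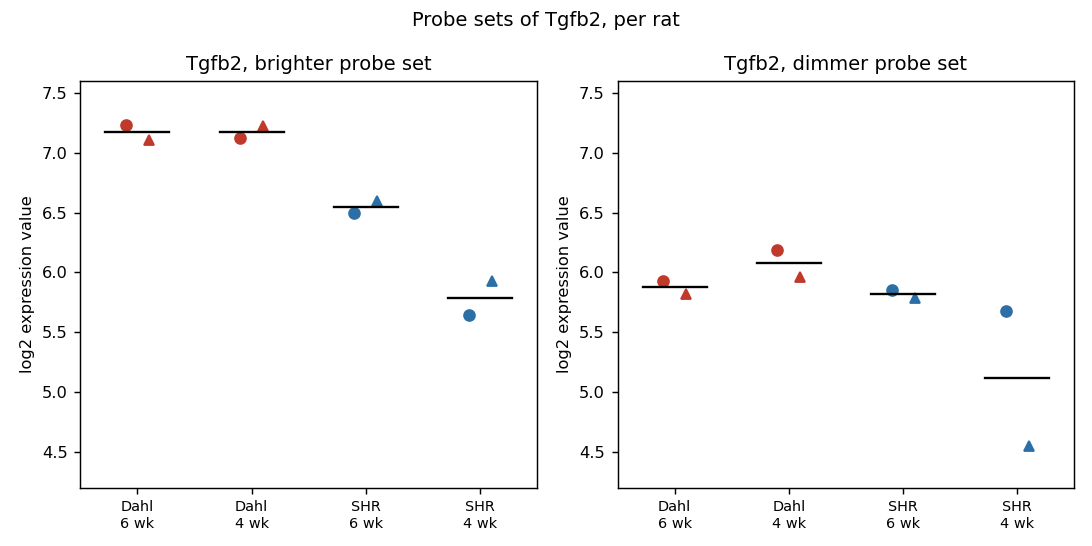
Log2 expression value (vertical axis) of the brighter (left) and the dimmer (right) probe set of Tgfb2, with 1 symbol per rat (a circle for replicate 1, a triangle for replicate 2) and a bar at each group's mean. On the brighter probe set all Dahl rats lay between 7.11 and 7.23, and on the dimmer one SHR 4 weeks replicate 2 lay at 4.55.

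Tgfb3, the third isoform, was dim, with a mean near the median of the probe set means (4.17). It read 4.85 and 4.85 in Dahl rats of 6 weeks and 4.87 and 4.30 in Dahl rats of 4 weeks, against 4.33 and 3.90 in SHR rats of 6 weeks and 3.62 and 3.19 in SHR rats of 4 weeks. The strains overlapped by 1 pair of rats, since Dahl 4 weeks replicate 2 (4.30) lay just under SHR 6 weeks replicate 1 (4.33). Means of 4.71 ± 0.28 in Dahl rats and 3.76 ± 0.48 in SHR rats (SD, n = 4 each) lay 0.95 apart, or 1.94-fold (standard error 0.19, adjusted p = 0.0267 from limma). The call was lost without Dahl 6 weeks replicate 2 (adjusted p = 0.0697), Dahl 4 weeks replicate 1 (0.0515), SHR 6 weeks replicate 1 (0.0585), SHR 6 weeks replicate 2 (0.0811) or SHR 4 weeks replicate 2 (0.0716), at differences of 0.81 to 1.06.

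Ltbp1, which ties latent TGF-beta to the matrix, was higher by a smaller amount. Its values were 8.68 and 9.21 in Dahl rats of 6 weeks and 8.73 and 8.64 in Dahl rats of 4 weeks, against 8.39 and 8.43 in SHR rats of 6 weeks and 8.25 and 8.12 in SHR rats of 4 weeks. The strains did not overlap, and the highest value belonged to Dahl 6 weeks replicate 2. The mean was 8.81 ± 0.26 in Dahl rats and 8.29 ± 0.14 in SHR rats (SD, n = 4 each), which is 0.52 higher, or 1.43-fold (standard error 0.13, adjusted p = 0.0381 from limma). The call held without either Dahl rat of 6 weeks but was lost without any 1 of the other 6 arrays, at differences of 0.49 to 0.55 and adjusted p of 0.0734 to 0.108.

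Tgfbr1, the type I receptor kinase that phosphorylates Smad2 and Smad3, went the other way. It read 8.85 and 8.70 in Dahl rats of 6 weeks, 8.93 and 8.89 in Dahl rats of 4 weeks, 8.92 and 8.95 in SHR rats of 6 weeks and 9.07 and 9.25 in SHR rats of 4 weeks. The strains overlapped, with 1 Dahl rat of 4 weeks (8.93) above 1 SHR rat of 6 weeks (8.92). The means of 8.84 ± 0.10 in Dahl rats and 9.05 ± 0.15 in SHR rats (SD, n = 4 each) differed by -0.20 (standard error 0.06, 0.868-fold, adjusted p = 0.0478 from limma). That call passed in 5 of 18 alternative analyses and was lost without Dahl 6 weeks replicate 2 (adjusted p = 0.106), without either Dahl 4 weeks rat (0.0906 and 0.125), without either SHR 6 weeks rat (0.116 and 0.13) and without SHR 4 weeks replicate 2 (0.0957). A dimmer Tgfbr1 probe set lay at 2.42 to 2.48 on every array.

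Tgfbr3 encodes betaglycan, a coreceptor that presents ligand, Tgfb2 above all, to the signaling receptors. It was dim, with 3.39 and 3.96 in Dahl rats of 6 weeks, 3.26 and 3.48 in Dahl rats of 4 weeks, 3.30 and 3.41 in SHR rats of 6 weeks and 3.42 and 3.43 in SHR rats of 4 weeks. Only Dahl 6 weeks replicate 2 stood apart, and the strains overlapped. The difference was 0.13 (standard error 0.14, adjusted p = 0.459, 95% confidence interval -0.23 to 0.50). The second probe set of Tgfbr3 read 2.85 to 2.95.

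Smad7, the feedback inhibitor that TGF-beta itself induces, had values of 8.33 and 8.94 in Dahl rats of 6 weeks and 8.25 and 8.09 in Dahl rats of 4 weeks. In SHR rats they were 8.01 and 8.22 at 6 weeks and 7.72 and 7.40 at 4 weeks. The strains overlapped in 1 pair, and the difference of 0.57 (standard error 0.17, 1.48-fold) missed the threshold by little (adjusted p = 0.0521 from limma, 95% confidence interval 0.14 to 0.99). Smad7 passed in 5 of 18 alternative analyses, among them without Dahl 6 weeks replicate 1 (0.72, adjusted p = 0.0246). Its second probe set was far dimmer, at 2.62 to 3.94, and gave a similar difference of 0.55 (adjusted p = 0.0521), while the third lay between 1.82 and 1.88 on all arrays.

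Ccn2 encodes a matricellular protein induced by TGF-beta, and its probe set lay at the top of the array's range, with a mean of 13.47. It read 13.43 and 13.70 in Dahl rats of 6 weeks, 13.59 and 13.37 in Dahl rats of 4 weeks, 13.63 and 13.58 in SHR rats of 6 weeks and 13.30 and 13.19 in SHR rats of 4 weeks. The Dahl rats and the SHR rats of 6 weeks overlapped fully, and only the SHR rats of 4 weeks were lower than the rest. The strain difference was 0.098 (standard error 0.085, adjusted p = 0.373, 95% confidence interval -0.12 to 0.32). Whether signal at this level is compressed was not tested, so the interval sets no limit on the difference in mRNA.

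**Figure D3:**
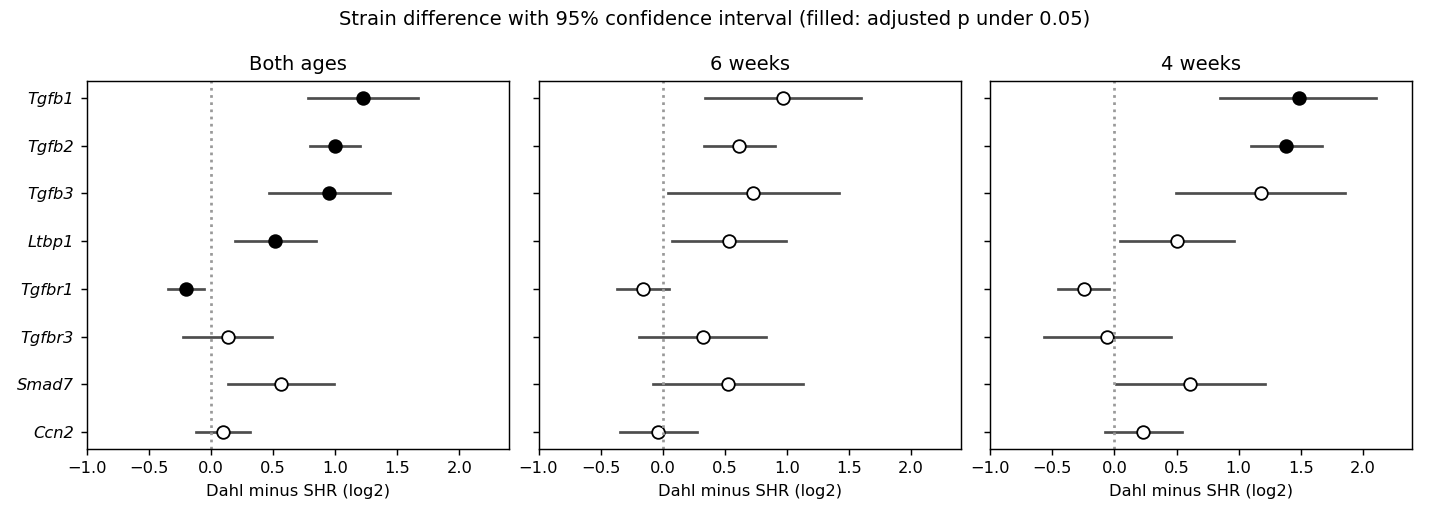
Difference between Dahl and SHR rats (horizontal axis, log2) for the 8 measured genes over both ages (left), at 6 weeks (middle) and at 4 weeks (right), with 95% confidence intervals from limma. Filled points passed an adjusted p of 0.05. Over both ages 5 genes were filled, at 6 weeks 0 and at 4 weeks 2, Tgfb1 and Tgfb2.

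By age, the strain difference was tested with 2 rats per strain. At 6 weeks none of the 8 genes was called by limma, where 3.28% of all probe sets were (1.65% higher and 1.63% lower). At an unadjusted p under 0.05, 4 of them passed (Tgfb1, Tgfb2, Tgfb3 and Ltbp1), as did 34.1% of all probe sets. By the methods' t-test 1 passed unadjusted, where 29.6% of all probe sets did, and 0 after adjustment. The differences at 6 weeks were 0.97 for Tgfb1 (adjusted p = 0.0922), 0.62 for Tgfb2 (0.0572) and 0.73 for Tgfb3 (0.136). At 4 weeks Tgfb1 and Tgfb2 were called, 2 of 8 genes, where 12.0% of all probe sets were (5.63% higher and 6.41% lower). Tgfb1 was higher in Dahl rats of 4 weeks by 1.48 (standard error 0.24, 2.80-fold, adjusted p = 0.0297 from limma) and Tgfb2 by 1.39 (standard error 0.11, 2.61-fold, adjusted p = 0.0079), while Tgfb3, at 1.18, narrowly missed (adjusted p = 0.0537). The Tgfb1 call at 4 weeks was lost without Dahl 4 weeks replicate 2 (1.21, adjusted p = 0.0953), either SHR 6 weeks rat (1.48, 0.0712) or SHR 4 weeks replicate 1 (1.62, 0.0681) or 2 (1.35, 0.113).

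The change with age was tested within each strain. In Dahl rats none of the 8 genes was called between 6 and 4 weeks by limma, where 0.0805% of all probe sets were (0.0515% higher and 0.0290% lower). None had an unadjusted p under 0.05 from limma, where 8.76% of all probe sets had. By the methods' t-test none passed either, unadjusted (4.43% of all probe sets) or adjusted (0%). The differences of the 8 genes, 6 weeks minus 4 weeks, had a median of 0.24, and that of Tgfb2 was -0.0012 (95% confidence interval -0.29 to 0.29). In SHR rats 1 of the 8 genes, Tgfb2, was higher at 6 weeks than at 4 weeks, by 0.77 (standard error 0.11, 1.70-fold, adjusted p = 0.0467 from limma), where 2.42% of all probe sets were called (1.50% higher and 0.915% lower). Tgfb1 and Tgfb3 had similar differences in SHR rats, 0.74 (adjusted p = 0.255) and 0.71 (adjusted p = 0.308), and Ccn2 had 0.36 (adjusted p = 0.26). The Tgfb2 call in SHR rats was narrow and was lost when any 1 of the 8 arrays was left out, at differences of 0.62 to 0.91 and adjusted p of 0.0531 to 0.196.

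The difference between the ages was itself tested, as the gap between Dahl and SHR at 6 weeks less the gap at 4 weeks. For Tgfb2 it was -0.77 (standard error 0.16, adjusted p = 0.165 from limma), for Tgfb1 -0.52 (adjusted p = 0.763) and for Tgfb3 -0.45 (adjusted p = 0.842). None of the 8 genes passed, 1 (Tgfb2) had an unadjusted p under 0.05, as had 11% of all probe sets, and 0.519% of all probe sets were called (0.235% higher and 0.283% lower). The narrower gap in ligand genes at 6 weeks was thus not shown to differ from that at 4 weeks. Leukocyte markers varied along with age. Their score was 0.731 and 1.10 in Dahl rats of 6 weeks and -0.0207 and -0.0245 in Dahl rats of 4 weeks, against 0.508 and 0.437 in SHR rats of 6 weeks and -1.40 and -1.77 in SHR rats of 4 weeks. Leukocytes produce Tgfb1, and their part in these values was not tested.

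Other cell type markers also moved with strain, and so beside every strain difference above. Median differences over both ages were 0.591 for mesangial and smooth muscle, 0.481 for podocyte, 0.385 for endothelial and 1.07 for leukocyte markers. They were -1.18 for proximal tubule, -0.806 for distal nephron and -0.0534 for platelet markers. That of the 8 TGF-beta genes was 0.54. The mesangial and smooth muscle score ran from 0.129 to 0.395 in Dahl rats and from -0.32 to -0.194 in SHR rats, with 6 of 12 markers higher and none lower in Dahl rats. Podocyte scores ran from -0.0149 to 0.462 in Dahl rats and from -0.411 to -0.0692 in SHR rats (6 of 12 markers higher), and endothelial scores from -0.0109 to 0.622 in Dahl rats and from -0.421 to -0.115 in SHR rats (6 of 11 higher). Of the tubular markers, 3 of 15 proximal and 5 of 14 distal ones were lower in Dahl rats and none was higher. Over all probe sets 10.6% were higher and 24.2% lower. The share of lower proximal markers did not exceed the latter, while that of lower distal markers did. Proximal scores nevertheless did not overlap between the strains, at most 0.0628 in Dahl rats and at least 0.256 in SHR rats. Distal scores overlapped. Of 17 leukocyte markers 10 were higher, led by Aif1 (1.90), and 4 lower, the macrophage genes Mrc1 (-1.76) and Cd163 (-0.141) and the T-cell genes Cd3e (-0.44) and Cd3d (-0.0583). Cd163 (2.4 to 2.66) and Cd3d (2.24 to 2.31) were dim on all arrays. Macrophage markers thus differed in both directions, the lower one resting on Mrc1. The share of lower leukocyte markers was near that of all probe sets. Markers of platelets, a rich store of TGF-beta protein, overlapped between the strains (scores of -0.0848 to 0.0409 in Dahl rats and -0.0498 to 0.0615 in SHR rats). Of 6 platelet markers 1 was lower, Ppbp, at 2.47 to 2.57 on all arrays. Their part in the differences of the TGF-beta genes was not tested.

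Beyond the 10 genes, 81 further genes of the pathway were listed in 6 sets by role, and 75 of them were measured. Over both ages 27 were higher and 8 lower in Dahl rats, where 10.6% of all probe sets were higher and 24.2% lower. Their median difference was 0.17, against -0.053 for all probe sets. In a fit of only the probe sets at or above the median level, 19% of these probe sets were higher and 11.8% lower. At 4 weeks 19 were higher and 1 lower, where 5.63% of all probe sets were higher and 6.41% lower. At 6 weeks 6 were higher and 1 lower, where 1.65% and 1.63% of all probe sets were. The genes named below are at most 4 of each set, those with the smallest p, and any others were picked after their values were seen. Without single arrays the 35 calls over both ages became 43 (Dahl 6 weeks replicate 1), 24 (Dahl 6 weeks replicate 2), 24 and 18 (Dahl 4 weeks replicates 1 and 2), 19 and 18 (SHR 6 weeks replicates 1 and 2) and 27 and 18 (SHR 4 weeks replicates 1 and 2). The share of all probe sets called moved with them, between 7.36% (without SHR 6 weeks replicate 2) and 37.0% (without Dahl 6 weeks replicate 1), against 34.7% with all arrays.

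**Figure D4:**
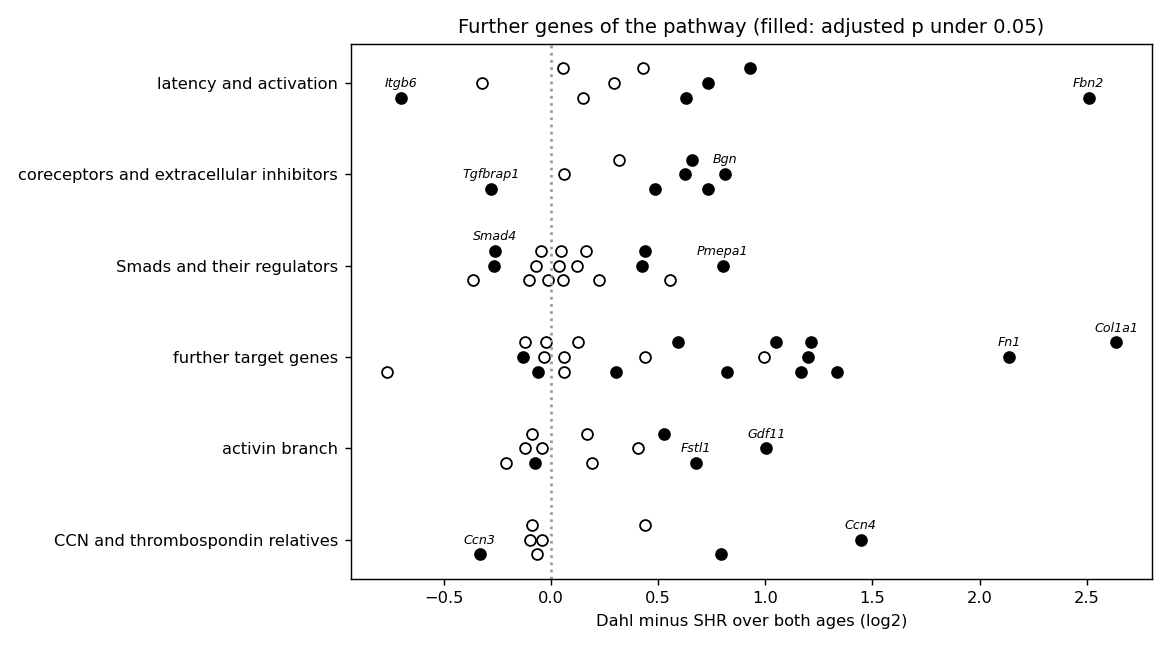
Difference between Dahl and SHR rats over both ages (horizontal axis, log2) of 75 further genes of the pathway, in 6 sets by role. Filled circles passed an adjusted p of 0.05 over all probe sets, 27 above 0 and 8 below. The largest differences were those of Col1a1 (2.64), Fbn2 (2.51) and Fn1 (2.14).

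In the set of latency and activation, 4 of 10 genes were higher and 1 lower, where 10.6% of all probe sets were higher and 24.2% lower. Fbn2, a fibrillin of developing matrix, read 5.58 and 6.11 in Dahl rats of 6 weeks, 6.72 and 6.93 in Dahl rats of 4 weeks, 4.09 and 4.33 in SHR rats of 6 weeks and 3.45 and 3.44 in SHR rats of 4 weeks. Every Dahl rat exceeded every SHR rat, by 2.51 on average (standard error 0.14, 5.69-fold, adjusted p = 0.00315 from limma). Fbn1, the main fibrillin to which latent TGF-beta is tethered, was higher by 0.73 (adjusted p = 0.00909), and Emilin1, which restrains processing of the TGF-beta precursor, by 0.93 (adjusted p = 0.0168). Itgb6, whose integrin frees latent TGF-beta on epithelia, was lower (-0.70, adjusted p = 0.043). The call of Emilin1 was lost without Dahl 4 weeks replicate 2, SHR 6 weeks replicate 1 or SHR 4 weeks replicate 2 (0.84 to 0.87), and that of Itgb6 without any 1 array except Dahl 6 weeks replicate 1 (-0.78 to -0.53).

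Of 8 coreceptors and extracellular inhibitors, 5 were higher and 1 lower, where 10.6% of all probe sets were higher and 24.2% lower. The small proteoglycans biglycan and fibromodulin, which bind TGF-beta in the matrix, were higher, Bgn by 0.81 (adjusted p = 0.00832 from limma) and Fmod by 0.63 (adjusted p = 0.00785). Fmod was dim, at 3.65 to 4.69, around the median of the probe set means (4.17). Bambi, a receptor without a kinase that dampens signaling, was higher by 0.73 (adjusted p = 0.0314), although not when any 1 array other than the Dahl 6 weeks pair was left out (0.66 to 0.80). The others were Eng (0.66) and Acvrl1 (0.49), an endothelial coreceptor and its type I receptor, whose calls were each lost without 7 of the 8 arrays in turn. Tgfbrap1, whose product binds TGF-beta receptors, was lower (-0.28, adjusted p = 0.0141), with 4.96 and 4.94 in Dahl rats of 6 weeks, 5.55 and 5.39 in Dahl rats of 4 weeks, 5.64 and 5.65 in SHR rats of 6 weeks and 5.33 and 5.35 in SHR rats of 4 weeks. Its deficit thus lay in the Dahl rats of 6 weeks, where the difference was -0.69 (adjusted p = 0.0157), and without either SHR rat of 6 weeks the call over both ages was lost (-0.28, adjusted p = 0.0519 and 0.0564).

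Among 17 Smads and their regulators, 3 were higher and 2 lower, and the set's median was 0.044. The total called was near the share of all probe sets, 34.7% (10.6% higher and 24.2% lower). Pmepa1, a target that in turn limits receptor signaling, was higher by 0.80 (standard error 0.08, adjusted p = 0.00897 from limma). It read 8.93 and 9.20 in Dahl rats of 6 weeks, 8.25 and 8.26 in Dahl rats of 4 weeks, 8.45 and 8.55 in SHR rats of 6 weeks and 7.34 and 7.11 in SHR rats of 4 weeks. Within each age the Dahl rats were above the SHR rats, and within each strain the older rats were above the younger. Skil, a Smad corepressor, was higher by 0.43 (adjusted p = 0.0338), while Smad4, the shared partner of the receptor Smads, and Nedd4l, a ubiquitin ligase for Smads, were lower by little (both -0.26, adjusted p = 0.0397 and 0.0416). Of these, only the call of Pmepa1 was kept whichever array was left out, and the direction of Smad4 turned on its second probe set (0.18). Smad2 and Smad3, the receptor-activated Smads themselves, had differences of 0.12 (adjusted p = 0.584) and -0.070 (adjusted p = 0.537).

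Of 21 further target genes, 10 were higher and 2 lower, where 10.6% of all probe sets were higher and 24.2% lower. Col1a1, a chain of type I collagen, read 9.01 and 9.32 in Dahl rats of 6 weeks and 10.02 and 10.12 in Dahl rats of 4 weeks, against 7.15 and 7.46 in SHR rats of 6 weeks and 6.37 and 6.95 in SHR rats of 4 weeks. The difference was 2.64 (standard error 0.17, 6.22-fold, adjusted p = 0.00378 from limma), and no alternative analysis ended it. Col1a2, the partner chain, had a difference of -0.032 (adjusted p = 0.821). Enzymes that crosslink or modify collagen were higher, with Lox at 1.05 (adjusted p = 0.00279), Loxl2 at 1.17 (adjusted p = 0.00263, but 0.205 and not called on its second probe set) and Plod2 at 1.34 (adjusted p = 0.00771). Fn1, which encodes fibronectin, was higher by 2.14 and the smooth muscle gene Tagln by 1.20 (adjusted p = 0.00483 each). The 2 lower genes, Postn (-0.13) and Cdkn2b (-0.063), were dim, at means of 2.81 and 2.15, and over all probe sets the median difference was itself below 0.

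Several of these genes also changed with age in SHR rats. There 5 of the 75 were higher and 2 lower at 6 weeks, where 1.50% of all probe sets were higher and 0.915% lower. In Dahl rats 0 of 75 were called. Only 0.0805% of all probe sets were called there, so the counts of the strains cannot be set against each other. The age difference itself differed between the strains for 3 of 75, Loxl2, Tgfbrap1 and Ccn3, where 0.519% of all probe sets were called. In SHR rats Tagln was higher by 1.41, Pmepa1 by 1.28 and Bgn by 1.07 at 6 weeks, as were Rhob (0.95) and Fstl1 (0.66), while Ccn3 was lower by 0.51. Lox went the opposite way in SHR rats, with 4.88 and 4.84 at 6 weeks and 6.55 and 6.53 at 4 weeks (-1.67, adjusted p = 0.0055 from limma). Each of these calls was lost when at least 1 SHR array was left out, that of Lox without SHR 6 weeks replicate 1 (-1.69, adjusted p = 0.0513), and Lox did not pass on its second probe set (-1.61).

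In the activin branch, whose ligands signal through the same Smad2 and Smad3, 3 of 11 genes were higher and 1 lower. The total called was near the share of all probe sets, 34.7% (10.6% higher and 24.2% lower). Gdf11, a ligand of this branch, was higher by 1.00 (adjusted p = 0.0204 from limma), and the follistatin relatives Fstl1 and Fstl3 by 0.68 (adjusted p = 0.0064) and 0.53 (adjusted p = 0.0196, but 0.0528 and not called on the second probe set of Fstl3). Fstl3 was dim, at 2.51 to 3.59 on all arrays. The call of Fstl3 was also lost without Dahl 4 weeks replicate 2 (adjusted p = 0.0657), SHR 6 weeks replicate 2 (0.0539) or SHR 4 weeks replicate 2 (0.055), at differences of 0.46 to 0.55. The call of Gdf11 was lost without Dahl 6 weeks replicate 2, Dahl 4 weeks replicate 2, SHR 6 weeks replicate 1 or SHR 4 weeks replicate 2 (0.90 to 0.96), and its second probe set was called in the opposite direction (-0.069, adjusted p = 0.0342). The activin subunit gene Inhba did not pass (0.40, adjusted p = 0.11). Mstn, which encodes myostatin, was lower by 0.075 at a mean of only 2.35, a call lost without any 1 array other than Dahl 6 weeks replicate 1 (-0.0795 to -0.0693).

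Among 8 relatives of Ccn2 and Thbs1, 2 were higher and 1 lower. The total called was near the share of all probe sets, 34.7% (10.6% higher and 24.2% lower). Ccn4, a CCN family gene, read 8.80 and 9.06 in Dahl rats of 6 weeks, 7.97 and 8.58 in Dahl rats of 4 weeks, 7.72 and 7.58 in SHR rats of 6 weeks and 6.86 and 6.48 in SHR rats of 4 weeks. Its strains did not overlap, and the difference was 1.45 (standard error 0.17, 2.72-fold, adjusted p = 0.0111 from limma). Ccn1 was higher by 0.79 (adjusted p = 0.0424), a call lost without any 1 array other than SHR 6 weeks replicate 1 (0.61 to 0.89). Ccn3, which opposes Ccn2 in mesangial cells, was lower by 0.33 (adjusted p = 0.00625), at 2.78 to 2.87 in Dahl rats and at 2.94 and 2.89 in SHR rats of 6 weeks and 3.42 and 3.43 in SHR rats of 4 weeks. The thrombospondin genes Thbs2, Thbs3 and Thbs4 lay at means of 1.66 to 2.66, and none was called.

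The genes whose values ran most like each of the 8 genes over the 8 arrays were sought among 9196 genes at or above the median signal, as a description without a test. The arrays share strain and age, so high correlations arise readily. Tgfb1 ran closest to Ildr2 (Pearson r = 0.9946) and Ikbip (0.9917), Tgfb2 to Fbln5, an elastic fiber gene (0.9872), and Ptgfrn (0.9847), and Tgfb3 to Jund (0.9782) and Vat1 (0.9773). Ltbp1 ran closest to Ensa (0.9866) and to Esam, an endothelial adhesion gene (0.9845), and Smad7 to Ppp1r9b (0.9911) and Tap1 (0.9909). Ccn2 ran closest to Srf, which encodes serum response factor (0.9789), and to Il18bp (0.9688). Tgfbr1 was most like Mrps34 (0.9843) and Sar1b (0.9832), and Tgfbr3 most like Ttc22 (0.9714) and Ldlrad4 (0.9591).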

How the data were processed

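Glomerular RNA of 8 male rats (2 each of Dahl 6 weeks, Dahl 4 weeks, SHR 6 weeks and SHR 4 weeks) was measured on 1 array per rat. The authors deposited 1 log2 value per probe set and array, after background correction and normalization, and no further scaling was applied here. RMA and GCRMA stand in the submitters' processing notes without versions. Which produced these values was not given in the sources used here. How far dim signals were compressed was not tested. The replicates are biological per the labels, and p-values measure the spread between these rats.

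From 31099 probe sets 57 controls were left out. Of the rest, 20826 are annotated to 1 gene, 436 to several (given no name) and 9780 to none. Each probe set was fitted by limma 3.58.1 (R 4.3.3) with 1 mean per group (4 residual and 0.921 prior degrees of freedom), after a test on simulated data. The number of arrays limits the precision. The study's statistics section names no test for the arrays. For levels of mRNA and protein it gives analysis of variance, and Student's unpaired test where few groups are compared. Student's test was run per probe set here as an alternative and is called the methods' t-test.

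Genes named are the 10 chosen ones, up to 4 of each of 6 pathway lists with the smallest p over both ages, and for each measured gene the 2 most correlated ones. Others were named after their values were seen. The genes, lists and tests were chosen with earlier results of these data known. Marker lists (podocyte, endothelium, mesangial and smooth muscle, proximal tubule, distal nephron, leukocyte, platelet) were scored per array as the median deviation from each gene's mean. Promoters are RefSeq's for GRCr8. Alternatives comprised quantile normalization, median centring, leaving out dim probe sets, a robust fit with a trend on intensity, another probe set of a gene, blocking on the replicate number, omitting every array once, the methods' t-test, an additive model and fits to 1 age alone.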

Additional observations from a re-analysis of the deposited data

Results flagged for a closer look

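Among 30 sets of 4 rats of 1 strain, 4 had a value far from the other 3, with a gap beyond Dixon's critical value for the share of the range, where chance gives about 1 in 20. The sets mix both ages. Tgfb3 was 4.30 in Dahl 4 weeks replicate 2, below the other Dahl rats. Ltbp1 was 9.21 in Dahl 6 weeks replicate 2, above the other Dahl rats. Tgfbr3 was 3.30 in SHR 6 weeks replicate 1, below the other SHR rats, although their whole range was small. The proximal tubule score was -2.02 in Dahl 6 weeks replicate 2, and the distal nephron score was lowest in the same rat (-1.15). Without that rat the difference in Ltbp1 over both ages was 0.387 and still passed.

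For 3 further genes of the pathway the strain difference itself changed with age, as for 0.519% of all probe sets. The change is the Dahl minus SHR gap at 6 weeks less the gap at 4 weeks, tested by limma and adjusted over all probe sets. Each call was lost under the replicate block and without at least 6 of the 8 arrays in turn. Loxl2, a collagen crosslinking enzyme gene, had -1.299 (adjusted p = 0.0397), with 4.76 and 4.67 in Dahl rats of 6 weeks, 5.65 and 5.70 in Dahl rats of 4 weeks, 4.31 and 4.08 in SHR rats of 6 weeks and 3.89 and 3.83 in SHR rats of 4 weeks. Tgfbrap1 had -0.8249 (adjusted p = 0.0414). Ccn3 had 0.5289 (adjusted p = 0.045), on values of at most 3.43.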

How the results depend on the processing

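Of 139 repeats of the 8 called differences of the TGF-beta genes, 87 kept the call, 52 lost it and 0 turned direction. Called genes over both ages numbered 5, with 3 after quantile normalization (Tgfb1, Tgfb2 and Tgfb3, where 7.28% of all probe sets were higher and 7.99% lower, against 10.6% and 24.2%), 3 with the second probe set, and 1 to 6 with 1 array left out: 6 and 3 without Dahl 6 weeks replicates 1 and 2, 2 and 3 without Dahl 4 weeks replicates 1 and 2, 1 without either SHR 6 weeks rat, and 4 and 2 without SHR 4 weeks replicates 1 and 2. At 4 weeks the 2 calls became 1 with the second probe set, 0 by the methods' t-test after adjustment, 0 with arrays of 1 age only and 1 to 3 with 1 array left out. At 6 weeks, where 3.28% of all probe sets were called, the 0 calls became 2 with an intensity trend (27.3%), 2 with dim probe sets left out (9.32%), 1 by the unadjusted t-test of the methods (29.6%) and 0 to 1 with 1 array left out. For age in SHR rats the 1 call became 0 with an intensity trend, quantile normalization, the second probe set, the adjusted t-test of the methods or any array left out, and 3 by the unadjusted t-test. In the setting with the second probe set, a gene with only 1 probe set kept that one. The calls counted there over both ages were Tgfb1, Tgfb3 and Ltbp1, and at 4 weeks Tgfb1, each with 1 probe set. None of the TGF-beta genes that have a second probe set was called on it. With a group left at 1 rat, that rat was assumed to vary like the others.

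Replicate numbers did not pair the rats (same-number correlations of -0.225 to 0.236 over 6 pairs of groups). With the replicate block, 0 TGF-beta genes were called for age in SHR rats, where 1.16% of all probe sets were. Over both ages it called 3 (Ltbp1 and Tgfbr1 lost) and 23 instead of 35 further pathway genes, where 18% of all probe sets were called. The adjusted t-test of the methods called 19 of the further pathway genes over both ages, where 38.7% of all probe sets were called.

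Directions turned only for small or uncalled differences, or on another probe set. Quantile normalization turned Tgfbr3 at 4 weeks (0.0146) and Tgfb2 with age in Dahl rats (0.00109), as did median centring (0.00604). The second probe set turned Tgfbr3 over both ages (-0.0469), at 6 weeks (-0.0413) and with age in Dahl rats (-0.00954), Tgfbr1 with age in Dahl rats (0.00866), Smad7 with age in SHR rats (-0.139) and between ages (0.662), Smad4 (0.18), Gdf11 over both ages (-0.0694) and at 4 weeks (-0.0547), and Tsc22d1 at 6 weeks (-0.887). With 1 array left out, ranges crossed 0 for Tgfbr3 over both ages (-0.00818 to 0.275) and at 4 weeks (-0.165 to 0.05), Ccn2 at 6 weeks (-0.173 to 0.1), age in Dahl rats of Tgfb1 (-0.0542 to 0.493), Tgfb2 (-0.063 to 0.0606), Tgfb3 (-0.0211 to 0.547), Ltbp1 (-0.00783 to 0.521) and Ccn2 (-0.0482 to 0.225), and the change between ages of Ltbp1 (-0.234 to 0.295), Tgfbr1 (-0.00318 to 0.182) and Smad7 (-0.389 to 0.214). The cause was not tested.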
